A study of Homo sapiens with 6 samples.

Results

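Molecular chaperones are described here, together with the factors that sense their demand: the heat shock proteins of the HSPA, HSPB, HSPD, HSPE and HSPH families, the J-domain proteins (DNAJ), the protein disulfide isomerases (PDIA), the folding and degradation factors HSP90B1, CALR, CANX, ERN1, HYOU1, SEL1L, EDEM1, HERPUD1, SDF2L1, MANF and CRELD2 of the endoplasmic reticulum (ER), and the transcription factors HSF1 and HSF2. Members were chosen by symbol alone among protein-coding genes. Of 90 genes with such a symbol, 26 belonged to a named array feature, out of 14884 genes with a named feature in all. By family these were 17 of 28 genes with an HSP symbol, 9 of the 12 other genes chosen by name, 0 of 45 DNAJ genes and 0 of 5 PDIA genes. The set as measured is therefore one of HSP70-type and small heat shock proteins and ER factors, with no J-domain protein and no disulfide isomerase of the PDIA family in it. The ER HSP70 HSPA5 (BiP), the constitutive cytosolic HSP70 HSPA8, the ER HSP90 HSP90B1 and HSPE1 were likewise not analysed here. By the known location of their products, 14 of the 26 were taken as cytosolic, 8 as ER, 2 as mitochondrial and 2 as nuclear or other.

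The arrays carried RNA of MOLM14, a human cell line from acute myeloid leukaemia, as 3 siATF4 samples (siRNA against ATF4) and 3 siCTRL samples (a non-targeting siRNA pool). Both groups received 70 nM of siRNA by electroporation. ATF4 carries out much of the integrated stress response in the nucleus, and the comparison asks what differs when its mRNA is targeted. The labels number the samples 1 to 3 in each group and describe them as technical replicates. The p-values cover the spread among these 6 samples alone, which may be technical.

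Chaperones hold unfolded proteins and help them to fold. In the cytosol, HSP70 proteins bind and release clients through cycles of ATP hydrolysis, HSP110-type proteins exchange their nucleotide, and HSF1 raises transcription of the inducible members when unfolded protein builds up. In the ER, lectin chaperones and an HSP70 system do the same work, while the sensors of the unfolded protein response, ERN1 (IRE1alpha) among them, raise ER chaperone genes through XBP1 and ATF6, and another arm of that response acts through ATF4. Mitochondria hold a system of their own, with HSPA9 (mortalin) as the HSP70 and HSPD1 (HSP60) as the chaperonin.

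The targeted mRNA was lower on every siATF4 array. On siATF4 arrays ATF4 averaged a log2 level of 7.92 ± 0.21, against 8.72 ± 0.11 on siCTRL arrays (SD, n = 3 each), which leaves 57.4% of the control level, so the comparison is one of a partial knockdown. In bulk RNA, fewer cells with a transcript and fewer copies per cell cannot be told apart. Of 7 myeloid markers measured, FLT3, LYZ and SPI1 lay above the upper quartile of all genes on all 6 arrays, MPO on 5, CSF1R on 2, and MEIS1 and the monocyte marker CD14 on 0. CD14 was under the median gene on all 6 arrays, as was the epithelial marker EPCAM. PECAM1, the other measured gene listed as a marker of other cells, went the other way. Its levels were 5.26 to 6.82, under the median gene on 0 arrays and above the upper quartile on 2.

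The siATF4 replicate 1 array stood apart from the rest. On it 593 genes (3.98%) lay at least 1 log2 from the mean of the other 5 arrays, against 21 to 268 genes on each of those 5, and its mean correlation with the others across genes was 0.961, where theirs ranged from 0.973 to 0.980. Among the myeloid markers, its MPO level was 5.58, against 8.45 to 10.4 on the other 5 arrays, and its CSF1R level was 8.18, against 5.05 to 6.57 on them. The summed log2 level of the 7 myeloid markers was 48.4 to 52.5 over the siATF4 arrays (52.0 on replicate 1). Over the siCTRL arrays it was 48.2 to 54.5, and in both groups it was lowest on replicate 3. MPO and CSF1R deviated in opposite directions and cancel in part, so the sum cannot show whether siATF4 replicate 1 differed in cell state. Of the 26 members, 18 had their highest or lowest value on this array, 9 each way, where 46.4% of all genes did. It held the lowest value of 6 of the 8 ER members, beside 23.6% of all genes, and the highest of 6 of the 14 cytosolic members, beside 22.8% of all genes. The difference of each member is therefore given with and without that array, singly or as a range, and the part that the state of the cells or of the RNA on it plays in these differences was not tested.

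No member was called in limma. At an adjusted p below 0.05 the count was 0 of 26 members, beside 0.0% of all 14884 genes, and at an unadjusted p below 0.05 it was also 0 of 26, beside 1.46% of all genes. The lowest adjusted p of a member was 1.00. The replicate block, which treats equal replicate numbers as pairs, gave 0 members at either level, beside 3.12% of all genes below an unadjusted 0.05. Every member's 95% confidence interval for the difference of siATF4 minus siCTRL spanned 0. The median standard error (SE) of a member's difference was 0.15 log2, close to that of all genes (0.15). That is not a limit of detection. ATF4 itself, at -0.80 (SE 0.14), was not called at the adjusted threshold. Differences well over 0.15 could therefore go uncalled with 3 arrays a group.

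**Figure D1:**
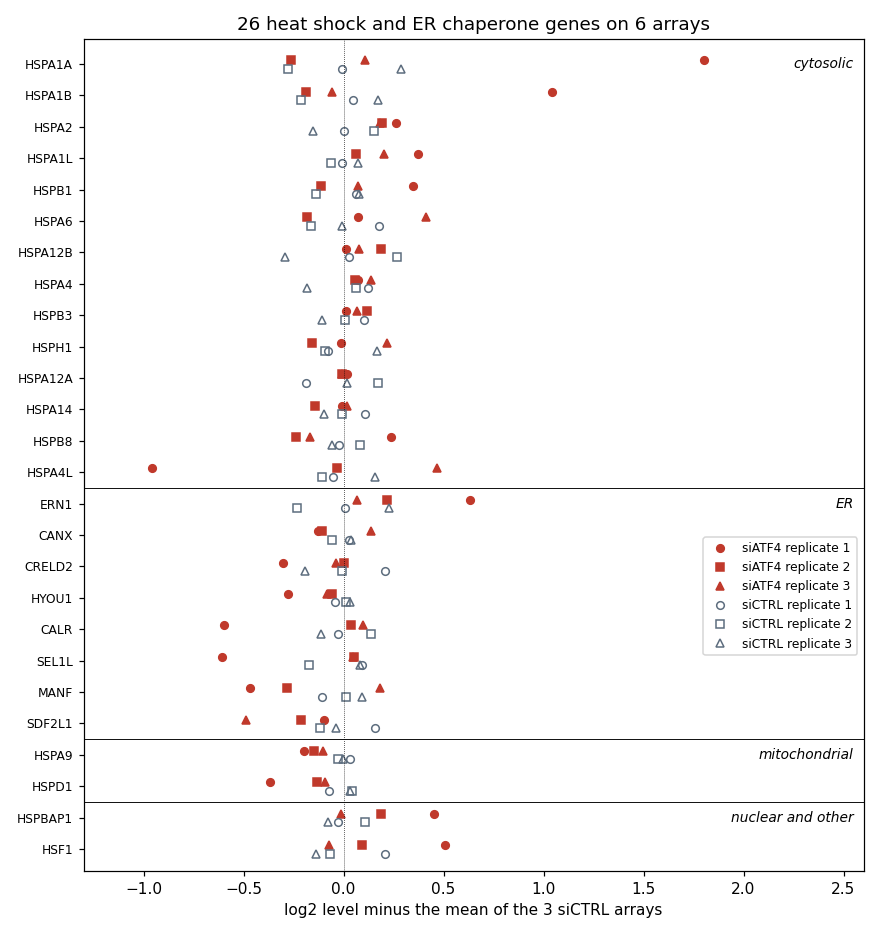
Log2 level of each of the 26 members on each array (x axis, as a difference from the mean of the 3 siCTRL arrays) by compartment (rows), with siATF4 arrays filled and siCTRL arrays open. The siATF4 replicate 1 circle lies outside all other points for HSPA1A and HSPA1B on the high side and for HSPA4L, CALR and SEL1L on the low side, and most other points fall within 0.5 of 0.

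The members did not move as a block. Of all 26, 12 had a lower mean with siATF4, beside 46.2% of all genes, and 14 a higher one, with a median difference of 0.01, beside 0.01 over all genes (0.01 and 0.02 without siATF4 replicate 1). By compartment the medians differed in sign: -0.15 for the 8 ER members, of which 7 had a lower mean, and 0.09 for the 14 cytosolic members, of which 11 had a higher mean. Without siATF4 replicate 1 the ER median was -0.0011, with 4 of 8 lower, and the cytosolic median 0.06, with 6 of 14 lower. Taken array by array, the median deviation of the ER members from their 6-array means was -0.23 on siATF4 replicate 1 and 0.04 and 0.08 on siATF4 replicates 2 and 3, against 0.05, 0.03 and 0.09 on the siCTRL arrays. It was below 0 on siATF4 replicate 1 alone. Groups did not overlap for 4 members: HSPD1, HSPA9 and HYOU1, where the highest siATF4 value was under the lowest siCTRL value (3 of 26, beside 2.59% of all genes), and HSPA2 with all above (1 of 26, beside 3.3%). Lower values in every replicate number were seen for 4 members (beside 9.2% of all genes) and higher ones also for 4 (beside 14.4%).

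Among cytosolic members, the stress-inducible HSP70 gene HSPA1A showed the widest spread, and its neighbour HSPA1B was high on the same array. HSPA1A had log2 levels of 9.68, 7.61 and 7.98 on siATF4 replicates 1, 2 and 3, against 7.87, 7.60 and 8.17 on siCTRL arrays. HSPA1B had 9.69, 8.46 and 8.59 on siATF4 arrays, against 8.69, 8.43 and 8.82 on siCTRL arrays. For both genes siATF4 replicate 1 was far above all other arrays, and the remaining siATF4 values lay inside the range of the siCTRL values. HSPA1A stood 1.84 log2 (3.57-fold) over the mean of the other 5 arrays there, the 48th highest such gap among all 14884 genes, and HSPA1B stood 1.09 log2 (2.13-fold) over it. The difference of siATF4 minus siCTRL was 0.55 (SE 0.51) for HSPA1A and 0.27 (SE 0.33) for HSPA1B, with unadjusted limma p-values of 0.322 and 0.443. Without that array the differences turned to -0.08 (SE 0.21) and -0.12 (SE 0.15).

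HSPA1A and HSPA1B encode near-identical proteins from neighbouring genes, so an array feature for either may bind RNA of both and their values are not independent. Each had 5 named features, whose differences ranged from 0.55 to 0.58 for HSPA1A and from 0.26 to 0.31 for HSPA1B. Several of the HSPA1A features had identical values on all 6 arrays, so its 5 features are not 5 separate measurements. The gap on siATF4 replicate 1 ranged from 1.84 to 2.05 over the HSPA1A features and from 1.03 to 1.33 over the HSPA1B features. The 250 bases before each start site, from RefSeq on GRCh38.p14, are shown because both genes were high on the same array. They lie at chr6:31815293-31815542 and chr6:31827488-31827737, both on the plus strand, and capitals mark the heat shock pair GAANNTTC, the core of the sequence that HSF1 binds:
HSPA1A: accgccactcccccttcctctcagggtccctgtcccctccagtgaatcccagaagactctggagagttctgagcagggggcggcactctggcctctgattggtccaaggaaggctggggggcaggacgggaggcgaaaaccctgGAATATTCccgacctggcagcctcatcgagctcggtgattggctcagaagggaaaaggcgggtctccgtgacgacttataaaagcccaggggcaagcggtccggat
HSPA1B: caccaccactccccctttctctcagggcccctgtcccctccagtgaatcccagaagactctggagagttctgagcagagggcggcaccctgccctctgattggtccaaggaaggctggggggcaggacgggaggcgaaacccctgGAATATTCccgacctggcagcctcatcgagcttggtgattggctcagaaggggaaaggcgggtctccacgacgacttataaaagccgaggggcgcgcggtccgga
An alignment of the stretches had 235 identical bases (93.6% of columns), with a longest shared run of 49 bases. The pair stands at -106 to -99 before HSPA1A and at -105 to -98 before HSPA1B, and was found in 6.77% of all 35116 RefSeq windows of 300 bases, 250 before and 50 after a start. It reads the same on both strands.

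HSPA1L, an HSP70 gene known for its expression in testis, starts next to HSPA1A on the opposite strand, and 241 bases of their promoter windows are the same DNA. Its levels were 4.86, 4.55 and 4.68 on siATF4 arrays and 4.48, 4.42 and 4.56 on siCTRL arrays, a difference of 0.21 (SE 0.12), or 0.13 without siATF4 replicate 1. Here too siATF4 replicate 1 was the highest array. On this brightest feature siATF4 was above siCTRL in every replicate number (0.38, 0.12 and 0.13). The differences of its 5 features, several with identical values on all 6 arrays, ranged from 0.17 to 0.21. On every dimmer feature, however, siATF4 replicates 2 and 3 were slightly under siCTRL replicates 2 and 3 (such as 4.44 and 4.65 against 4.47 and 4.68). HSPA2, another HSP70 known from testis, had 3.81, 3.74 and 3.73 on siATF4 arrays and 3.55, 3.70 and 3.39 on siCTRL arrays, a difference of 0.21 (SE 0.12), or 0.19 without siATF4 replicate 1. The siATF4 arrays lay above all siCTRL arrays, with an exact permutation p of 0.1 (two-sided), the smallest that 3 against 3 arrays can give. Any 3 against 3 arrays without overlap give that value, so it adds nothing to the lack of overlap. HSPA2 was under the median gene on all 6 arrays, so its signal is less certain.

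The other inducible or abundant cytosolic genes did not share the jump of HSPA1A. HSPH1, an HSP110-type exchange factor and a known HSF1 target, had 10.1, 9.98 and 10.4 on siATF4 arrays and 10.1, 10.0 and 10.3 on siCTRL arrays, a difference of 0.02 (SE 0.14), or 0.03 without siATF4 replicate 1. On siATF4 replicate 1 it lay -0.03 from the mean of the other 5 arrays. HSPB1 (HSP27), a small heat shock protein that keeps unfolded clients soluble, had 8.72, 8.26 and 8.44 on siATF4 arrays and 8.43, 8.23 and 8.44 on siCTRL arrays. Its difference was 0.10 (SE 0.15), or -0.02 without siATF4 replicate 1, where it was 0.36 above the mean of the other 5. HSPA4L, a second HSP110-type gene, was turned the other way: it had 6.91, 7.84 and 8.34 on siATF4 arrays and 7.82, 7.77 and 8.03 on siCTRL arrays. Its siATF4 arrays spanned both the lowest and the highest of the 6 values, and the difference of -0.17 (SE 0.34) became 0.22 (SE 0.18) without siATF4 replicate 1.

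**Figure D2:**
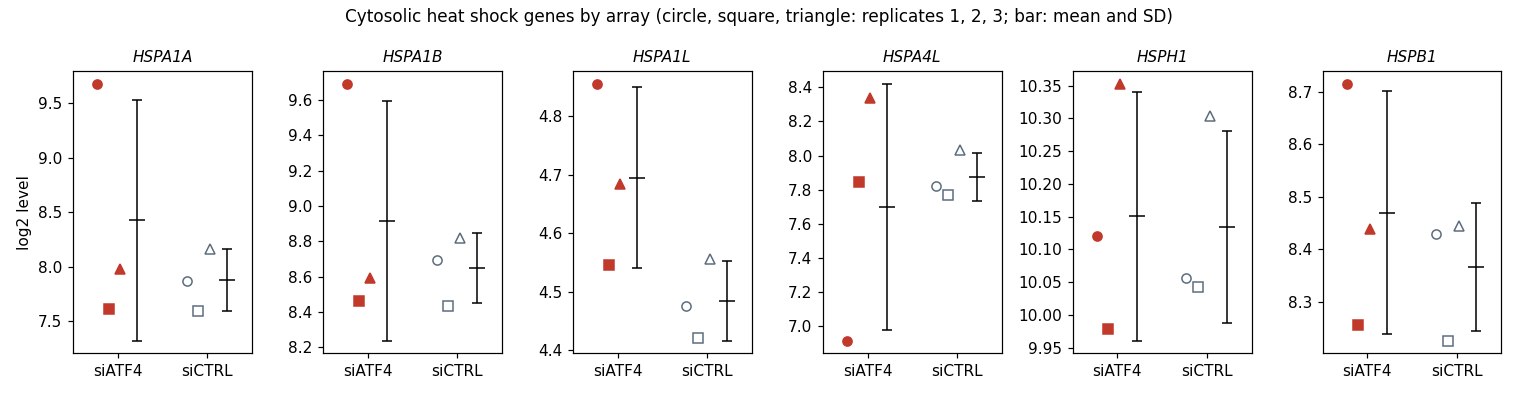
Log2 levels (y axis, a separate range for each gene) of 6 cytosolic members by group, with siATF4 left of siCTRL and circles, squares and triangles for replicates 1, 2 and 3. Bars give mean and SD of 3 arrays. The siATF4 replicate 1 circle is the highest point for HSPA1A (9.68), HSPA1B (9.69), HSPA1L (4.86) and HSPB1 (8.72), the lowest for HSPA4L (6.91), and within the siCTRL range for HSPH1 (10.1).

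HSPA4L was also the only member whose promoter window held the letters TGATGNAA, the core of the composite C/EBP-ATF element through which ATF4 acts, on either strand. These letters occur in 3.62% of all windows and in 4.46% of all genes with a window. The 1 matching gene among 23 members with a window is near that share, and a match does not show binding. The stretch lies at chr4:127781609-127781676 on the plus strand, with the match at -157 to -150 in capitals:
HSPA4L: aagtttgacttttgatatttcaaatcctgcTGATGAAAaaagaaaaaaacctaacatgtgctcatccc
The remaining 7 cytosolic members had small differences in either direction. HSPA4, another HSP110-type gene, differed by 0.09 (SE 0.12) and HSPA14, a ribosome-associated HSP70 relative, by -0.04 (SE 0.11). HSPA6, an HSP70 that is silent without stress, differed by 0.10 (SE 0.18) with levels between 3.77 and 4.36 over all arrays, under the median gene on each. The distant relatives HSPA12A and HSPA12B differed by 0.00 and 0.09, and the small heat shock genes HSPB3 and HSPB8 by 0.07 and -0.06. Without siATF4 replicate 1 the 7 differences lay between -0.20 (HSPB8) and 0.13 (HSPA12B). The last 4 were also under the median gene on all 6 arrays, and with HSPA2 and HSPA6 they make up the 6 members so placed.

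Most ER members had their lowest value on siATF4 replicate 1. CALR (calreticulin), the lectin chaperone of the ER lumen, had 10.8, 11.4 and 11.5 on siATF4 arrays and 11.3, 11.5 and 11.3 on siCTRL arrays. SEL1L, the adaptor of the HRD1 ubiquitin ligase in ER-associated degradation, had 7.29, 7.95 and 7.95 on siATF4 arrays and 7.99, 7.72 and 7.98 on siCTRL arrays. For both genes siATF4 replicate 1 was the lowest of the 6 arrays, by 0.63 log2 from the mean of the others, and siATF4 replicates 2 and 3 lay among the siCTRL values. The difference was -0.15 (SE 0.20) for CALR and -0.17 (SE 0.20) for SEL1L, and 0.07 and 0.05 without that array. CANX (calnexin), the membrane-bound lectin chaperone, had 9.19, 9.21 and 9.46 on siATF4 arrays and 9.34, 9.26 and 9.35 on siCTRL arrays. Its groups overlapped, with a difference of -0.03 (SE 0.12), or 0.01 without siATF4 replicate 1.

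HYOU1 (GRP170), the exchange factor of BiP, had 7.20, 7.42 and 7.40 on siATF4 arrays and 7.44, 7.49 and 7.51 on siCTRL arrays. It was the only ER member whose groups did not overlap, at a difference of -0.14 (SE 0.11) and an unadjusted limma p of 0.239. Without siATF4 replicate 1 the difference was -0.07, and a dimmer second feature of the gene gave -0.02. SDF2L1, a lumenal cofactor of the ER HSP70 system, had 5.84, 5.72 and 5.45 on siATF4 arrays and 6.09, 5.82 and 5.90 on siCTRL arrays. It was lower in every replicate number (-0.25, -0.10 and -0.45), with a difference of -0.27 (SE 0.14, 95% interval -0.61 to 0.07), the lowest of all members. The difference was -0.35 (SE 0.15, unadjusted limma p 0.0557) without siATF4 replicate 1 and -0.16 (unadjusted limma p 0.312) without siATF4 replicate 3, the array on which SDF2L1 was lowest.

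MANF, a secreted factor induced by ER stress, had 5.36, 5.55 and 6.01 on siATF4 arrays and 5.73, 5.85 and 5.93 on siCTRL arrays. The difference of -0.19 (SE 0.18) was -0.05 without siATF4 replicate 1 and -0.38 without siATF4 replicate 3, the array on which MANF was highest. CRELD2, another ER stress-induced protein, had 4.66, 4.97 and 4.93 on siATF4 arrays and 5.17, 4.95 and 4.77 on siCTRL arrays, a difference of -0.11 (SE 0.15) with overlapping groups, or -0.02 without siATF4 replicate 1. ERN1, the kinase and endoribonuclease that splices XBP1 mRNA, was the ER member with a higher mean. It had 5.97, 5.56 and 5.41 on siATF4 arrays and 5.35, 5.11 and 5.57 on siCTRL arrays, a difference of 0.30 (SE 0.19), or 0.14 without siATF4 replicate 1, where it was highest.

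Some ER members held known ER stress motifs in their promoter windows. The choice was by symbol, but the symbols name known ER chaperone and ER stress genes, so this is no independent result. The ER stress response element (ERSE), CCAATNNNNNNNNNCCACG, and its variant ERSE-II, ATTGGNCCACG, are the sites through which ATF6 and XBP1 act, and both were searched on both strands. ERSE occurred in windows of CALR, CANX and CRELD2 and in 0.0769% of all windows, and ERSE-II in those of HYOU1 and SDF2L1 and in 0.0541% of all windows. Together 5 of 8 ER members and 0 of the other members held either. The matched stretches are shown to let the 5 be compared, with the motif in capitals. CALR lies at chr19:12938359-12938442, CANX at chr5:179698738-179698836, CRELD2 at chr22:49918514-49918612 and SDF2L1 at chr22:21642074-21642164, all on the plus strand, and HYOU1 at chr11:119057234-119057433 on the minus strand:
CALR: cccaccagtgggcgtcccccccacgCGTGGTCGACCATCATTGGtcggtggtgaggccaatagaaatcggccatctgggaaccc
CANX: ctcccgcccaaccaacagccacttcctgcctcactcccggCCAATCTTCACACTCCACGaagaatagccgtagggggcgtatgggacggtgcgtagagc
CRELD2: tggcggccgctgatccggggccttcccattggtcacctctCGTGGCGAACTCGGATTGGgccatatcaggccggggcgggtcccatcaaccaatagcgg
HYOU1: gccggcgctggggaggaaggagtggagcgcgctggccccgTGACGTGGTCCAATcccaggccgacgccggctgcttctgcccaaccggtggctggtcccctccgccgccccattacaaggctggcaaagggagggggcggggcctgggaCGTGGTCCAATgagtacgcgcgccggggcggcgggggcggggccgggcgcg
SDF2L1: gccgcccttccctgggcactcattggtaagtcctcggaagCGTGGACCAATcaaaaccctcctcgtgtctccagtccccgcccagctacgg
In CALR, CRELD2, HYOU1 and SDF2L1 the motif reads on the reverse strand. HYOU1 carried ERSE-II at -185 to -175 and again at -79 to -69. The first copy overlaps TGACGTG (-188 to -182), the core of the XBP1-binding UPRE, which is capitalised with it and occurs in 1.97% of all windows. The 5 genes had differences from -0.27 (SDF2L1) to -0.03 (CANX), or from -0.35 (SDF2L1) to 0.07 (CALR) without siATF4 replicate 1, where CALR and CANX were above 0. No match was found for MANF, SEL1L or ERN1, which says only that these letters are not in those windows.

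Both mitochondrial members had siATF4 values that all fell under the lowest siCTRL value. HSPD1, the chaperonin that folds imported proteins in the matrix, had 7.82, 8.06 and 8.10 on siATF4 arrays and 8.12, 8.23 and 8.22 on siCTRL arrays. HSPA9, the matrix HSP70 that also drives import, had 9.88, 9.93 and 9.98 on siATF4 arrays and 10.12, 10.05 and 10.08 on siCTRL arrays. The groups were separate but close, with gaps between nearest arrays far smaller than the jumps of HSPA1A. The difference was -0.20 (SE 0.12, 95% interval -0.48 to 0.08) for HSPD1 and -0.15 (SE 0.10, 95% interval -0.38 to 0.08) for HSPA9, which leaves 87.1% and 90.1% of the control levels. By replicate number HSPD1 differed by -0.30, -0.18 and -0.12 and HSPA9 by -0.23, -0.12 and -0.10. Without siATF4 replicate 1 the differences were -0.11 and -0.13. Unadjusted limma p-values were 0.133 and 0.161. The exact permutation p was 0.1 for each (two-sided, the smallest possible), which follows from the lack of overlap and adds nothing to it.

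**Figure D3:**
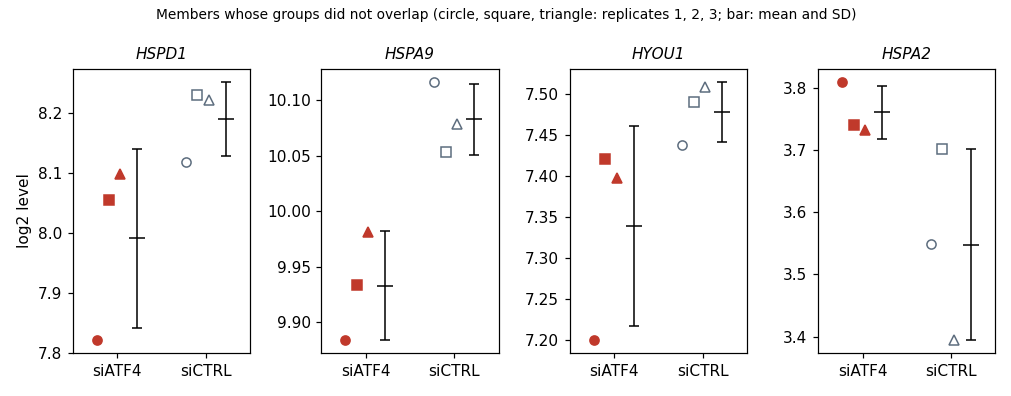
Log2 levels (y axis, a separate and narrow range for each gene) of the 4 members whose groups did not overlap, with siATF4 left of siCTRL, circles, squares and triangles for replicates 1, 2 and 3, and bars for mean and SD of 3 arrays. All siATF4 points are below all siCTRL points for HSPD1, HSPA9 and HYOU1 and above them for HSPA2, and the differences are 0.21 log2 or less in size.

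A promoter window of HSPD1 held the longer heat shock triplet GAANNTTCNNGAA, in 2 overlapping matches on opposite strands that also contain the heat shock pair. The triplet occurred in 0.49% of all windows and, among members, also before HSPA6. The HSPD1 stretch lies at chr2:197500028-197500090 on the minus strand, with the matches in capitals:
HSPD1: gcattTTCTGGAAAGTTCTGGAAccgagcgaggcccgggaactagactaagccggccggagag
The heat shock pair was found in 8 of the 23 members with a window, beside 8.21% of all genes with a window. These were HSPA1A, HSPA1B, HSPA1L, HSPA6, HSPB1, HSPB8, HSPD1 and CANX. The choice was by symbol, but HSP symbols name known heat shock genes, so this count is no independent result. The matches before HSPA1A and HSPA1L are the same bases of their overlapping windows, so those genes share that site. The differences of the 8 members ran from -0.20 (HSPD1) to 0.55 (HSPA1A), or from -0.20 (HSPB8) to 0.13 (HSPA1L) without siATF4 replicate 1. HSPA1A, HSPA1B, HSPA1L, HSPB1 and HSPB8 were each highest on siATF4 replicate 1, HSPD1 and CANX lowest there, and HSPA6 neither. Of the 26 members 23 had a promoter window, with HSF1, HSPA12B and HSPA14 named only.

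HSF1, the transcription factor of the heat shock response, had 7.20, 6.79 and 6.62 on siATF4 arrays and 6.90, 6.62 and 6.56 on siCTRL arrays. It was higher in every replicate number (0.30, 0.16 and 0.06), the groups overlapped, and the difference of 0.17 (SE 0.18) was 0.01 without siATF4 replicate 1. HSPBAP1, a binding partner of HSPB1, had 6.35, 6.09 and 5.89 on siATF4 arrays and 5.87, 6.01 and 5.82 on siCTRL arrays, again higher in every number, with a difference of 0.21 (SE 0.15), or 0.09 without that array. Like HSPA1A, both were highest on siATF4 replicate 1.

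**Figure D4:**
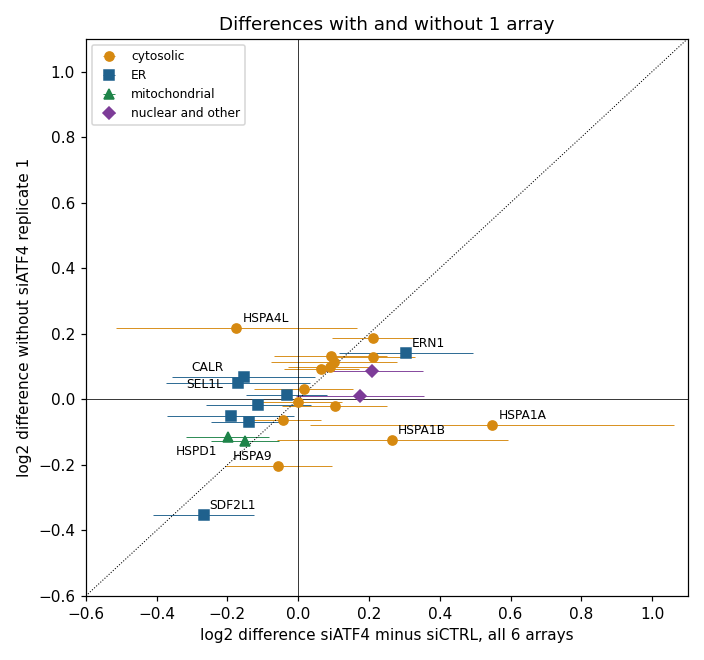
Log2 difference of siATF4 minus siCTRL of each member with all 6 arrays (x axis, bars give limma's SE) against the difference without siATF4 replicate 1 (y axis), coloured by compartment, with a dotted line where both are equal. HSPA1A is at 0.55 with and -0.08 without that array, HSPA4L at -0.17 with and 0.22 without it, CALR and SEL1L cross 0, and SDF2L1, HSPD1 and HSPA9 stay below 0.

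Other genes of the same pathways were read from lists of partners. Of 33 measured ER partners (52 listed), 15 had a lower and 18 a higher mean with siATF4, with a median of 0.01, or also 0.01 without siATF4 replicate 1. Over all genes 46.2% had a lower mean. In limma 2 of the 33 lay below an unadjusted p of 0.05, beside 1.46% of all genes, and 0 were called. ERP29, a lumenal chaperone of the disulfide isomerase fold, had 7.14, 7.61 and 7.33 on siATF4 arrays and 7.86, 7.75 and 7.61 on siCTRL arrays, all siATF4 arrays below, at -0.38 (SE 0.15, unadjusted limma p 0.0409), or -0.27 without siATF4 replicate 1. DERL2, a channel component of ER-associated degradation named after its values were seen, was higher on all siATF4 arrays, at 0.30 (SE 0.12, unadjusted limma p 0.0428), or 0.29 without siATF4 replicate 1. By size of difference SERP1 at -0.37, CLGN at -0.36 and ERO1A at -0.32 stood between ERP29 and DERL2, and without siATF4 replicate 1 they were at 0.10, 0.49 and -0.02.

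Of 21 measured cytosolic partners (37 listed), 12 had a lower and 9 a higher mean, with a median of -0.02 (-0.01 without siATF4 replicate 1). In limma 0 lay below an unadjusted p of 0.05, beside 1.46% of all genes. With the replicate block 1 did (PPID, at an unadjusted p of 0.0349), beside 3.12%. HSBP1, which binds HSF1, was at 0.32 (SE 0.23), the HSP70 cofactor BAG2 at -0.29 (SE 0.15), with groups that did not overlap, and the HSP90-bound cyclophilin PPID at 0.29 (SE 0.18). Without siATF4 replicate 1 these were 0.25, -0.23 and 0.27. The HSF1 target BAG3, named after its values were seen, was 0.52 above the mean of the other 5 arrays on siATF4 replicate 1 and at 0.04 without that array. The list did not share this direction. That array was the highest for 4 of the 21 cytosolic partners and the lowest for 7, beside 22.8% and 23.6% of all genes. Of 4 measured mitochondrial partners (9 listed), HSCB was at 0.24, TIMM44 at -0.17 and the mitochondrial HSP90 TRAP1 at -0.11, or 0.25, -0.12 and -0.10 without siATF4 replicate 1, and 0 lay below an unadjusted 0.05 in limma. Among 11 measured stress-response regulators (17 listed) 9 had a lower mean, beside 46.2% of all genes. Their median was -0.16 (-0.13 without siATF4 replicate 1). The 9 include ATF4, the siRNA target, and the list was chosen with earlier results known, so the count is no independent result. By limma 1, ATF4, lay below an unadjusted 0.05, beside 1.46% of all genes. With the replicate block 3 did (ATF4, TRIB3 and ASNS), beside 3.12%. XBP1, the transcription factor downstream of ERN1, had 7.27, 8.13 and 7.56 on siATF4 arrays and 8.62, 8.24 and 7.83 on siCTRL arrays. Its groups overlapped, and it was at -0.58 (SE 0.28), or -0.39 without siATF4 replicate 1, while the measured members with ERSE or ERSE-II lay between -0.27 and -0.03, or between -0.35 and 0.07 without that array.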

How the data were processed

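Gene expression was measured on Affymetrix whole-transcript arrays from 100 ng of total RNA, per the labels' protocols. The deposited table gives 53617 features on 6 arrays, and its values were read as log2 from their range, since the sources used here state neither the base nor the background correction nor the normalization. The authors' software was Partek, per the submitters' processing notes. Array medians lay between 3.88 and 3.96, so nothing was normalized again.

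The platform annotation named 1 gene for 16098 features, several for 0 and none for 37519. The brightest feature stood for a gene. Differences are siATF4 minus siCTRL from limma 3.58.1 in R 4.3.3 (group as the only term, no filter on dim genes, Benjamini-Hochberg over 14884 genes, threshold 0.05), with SE from the moderated fit. The fit was tested on simulated data with independent noise, with no deviating array and no link between replicate numbers. That test does not cover these features of the present arrays. Single members also had an exact two-sided permutation test. Members were not tested as a set.

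Members and lists were chosen with earlier results of these data known, and so were the promoter motifs. All members were named, with every array's value for those without overlap, the 8 highest and 8 lowest and fixed well-known genes, and for lists the 3 largest. Deviations of equal replicate numbers correlated at 0.20, 0.40 and 0.62, each over 0.1, so pairs were fitted as a block, a pairing taken from the values because the labels do not state one (siATF4 replicate 2 correlated with siCTRL replicate 1 at 0.48). Alternatives were quantile normalization, equal medians, the block, a variance trend, array weights, a filter on the dimmest 33%, the mean of a gene's features and each array left out. The number of arrays limited precision, and for some members so did the deviation of siATF4 replicate 1. Without that array the SE fell from 0.51 to 0.21 for HSPA1A and from 0.34 to 0.18 for HSPA4L. For SDF2L1 it did not fall (0.14 and 0.15). Signal over background was not analysed here.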

Additional observations from a re-analysis of the deposited data

How the results depend on the processing

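Under all alternatives, 0 genes and 0 members passed the adjusted threshold in limma, and also when any array was left out. The replicate block changed no member's call (0 members called). Members below an unadjusted 0.05 numbered 0, but 1 with array weights (SDF2L1, -0.30) and 0 to 1 with each array left out (MANF without siATF4 replicate 3). Over the fits that left out 1 array, the ER median lay between -0.18 and -0.0011 and the ER minus cytosolic median between -0.28 and -0.062, both nearest to 0 without siATF4 replicate 1. The cytosolic median lay between 0.054 and 0.13 over those fits. With array weights the ER median was -0.070, the cytosolic median 0.029 and the ER minus cytosolic median -0.099. Of 179 other member values 4 turned sign: HSPA6 (-0.054), HSPB1 (-0.0054) and HSPH1 (-0.0069) with array weights and HSPA12A (-0.037) with the mean of its features. The causes were not tested. Many of the 179 could not turn. The block, the variance trend and the filter on dim genes leave a member's difference unchanged. So does the mean of features for a member with 1 feature. The count is therefore no measure of how stable the signs are. With each array left out, 12 members kept their direction and 14 did not. The ranges of those 14 were -0.28 to 0.069 for CALR, -0.12 to 0.014 for CANX, -0.28 to 0.050 for SEL1L, -0.095 to 0.087 for HSPA12A, -0.055 to 0.22 for HSPA12B, -0.093 to 0.0088 for HSPA14, -0.079 to 0.95 for HSPA1A, -0.12 to 0.49 for HSPA1B, -0.0032 to 0.15 for HSPA4, -0.50 to 0.22 for HSPA4L, -0.055 to 0.24 for HSPA6, -0.020 to 0.21 for HSPB1, -0.20 to 0.034 for HSPB8 and -0.086 to 0.10 for HSPH1. The filter on dim genes dropped 3 members (HSPA12A, HSPA2 and HSPB3). Dim members are the least certain, since signal over background was not analysed here.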
